A study of Homo sapiens with 6 samples.

Results

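The fibroblast growth factor (FGF) genes described here are 5 genes grouped as ligands (FGF1, FGF2, FGF5, FGF9 and FGF11), the 4 receptor tyrosine kinases FGFR1, FGFR2, FGFR3 and FGFR4, and the carrier protein gene FGFBP1. They were taken by symbol from the deposited table, where these 10 genes are among 21293, and the rule that selects them uses the symbol alone. Messenger RNA was sequenced from H2087-LCC cells, a latency competent cancer (LCC) population selected in vivo from a human lung adenocarcinoma (LUAD) cell line and labeled as a dormant metastatic derivative. Cells were treated for 3 days with SB505124 (SB), a small molecule that blocks the kinase of the TGFβ type I receptor and served as the control, for 3 days with TGFβ, or for 7 days with TGFβ, with 2 libraries in each group. All 3 groups share the cell population, and the study asked how its epithelial-mesenchymal transition (EMT) unfolds under sustained TGFβ. The study calls its 2 libraries a group technical replicates, so the errors and p-values below may cover technical spread only. The SB group covers 3 days only, so the effect of 7 days of TGFβ and that of the longer culture cannot be told apart. As the RNA came from whole cultures, fewer cells expressing a gene and less of its RNA per cell cannot be told apart either.

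FGFs are signaling proteins that bind receptor tyrosine kinases at the cell surface together with heparan sulfate, a sulfated sugar chain that holds the ligand on its receptor. Receptor activation is relayed by the adaptor FRS2 and by GRB2 and SOS to RAS and the MAP kinases, and the pathway limits itself by inducing inhibitors such as the Sprouty proteins and the phosphatase DUSP6. In the developing lung, FGFs pass between epithelium and mesenchyme. FGFR1, FGFR2 and FGFR3 are each spliced into an epithelial IIIb and a mesenchymal IIIc form with different ligand preferences, a choice made in epithelial cells by the splicing factors ESRP1 and ESRP2. The deposited values are per gene and hold no information on these forms.

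The values are read counts that the authors normalized by library size and deposited as whole numbers, and they summed to between 34306283 and 36340734 per library. From the spacing of the low values, 1 read was worth an estimated 0.896 to 1.10 normalized counts, so a normalized count near 5 rests on about as many reads. All 11 markers of lung adenocarcinoma epithelium were detected in every library, with a summed level of 92976 to 128785, while the leukocyte genes PTPRC and CD3E reached at most 4 and 1 normalized counts. The sum hides that these markers moved in both directions. CDH1 was at 371 and 635 with SB and at 10 and 9 after 7 days of TGFβ. KRT7 was at 5860 and 6183 with SB and at 13979 and 11230 after 7 days. The direct TGFβ target TGFBI was at 23141 and 21758 in the SB libraries and at 142753 or more in all 4 TGFβ libraries. The SB libraries differed from each other in the surfactant gene SFTPB (1104 in the first and 8273 in the second), and results below that rest on 1 of them are given without it.

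Sequences upstream of 3 members are shown because FGF1 and FGF5 had the highest mean normalized counts among the ligands over the 6 libraries and both rose with TGFβ, and because FGFBP1 fell the most. Each is the 250 bases before the most upstream start of the gene in the RefSeq promoter table, written 5′ to 3′ on the gene's own strand. The table is on GRCh38.p14, and each sequence was placed on GRCh37, the build of the counts (hg19), by an exact match. Capitals mark letters that match CAGGTG or its reverse complement CACCTG, the sequence bound by SNAIL and ZEB repressors.
FGF1, chr5:142077636-142077885, minus strand, 250 bases: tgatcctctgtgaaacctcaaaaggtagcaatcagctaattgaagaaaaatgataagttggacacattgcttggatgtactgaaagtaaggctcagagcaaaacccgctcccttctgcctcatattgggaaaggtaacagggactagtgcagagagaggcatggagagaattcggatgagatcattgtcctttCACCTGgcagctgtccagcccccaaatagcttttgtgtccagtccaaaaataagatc
FGF5, chr4:81187492-81187741, plus strand, 250 bases: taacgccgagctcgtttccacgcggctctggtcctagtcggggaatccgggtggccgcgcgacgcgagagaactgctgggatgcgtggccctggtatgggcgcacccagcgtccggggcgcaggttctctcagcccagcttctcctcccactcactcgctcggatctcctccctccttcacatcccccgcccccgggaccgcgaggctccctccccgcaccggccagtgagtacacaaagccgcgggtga
FGFBP1, chr4:15940364-15940613, minus strand, 250 bases: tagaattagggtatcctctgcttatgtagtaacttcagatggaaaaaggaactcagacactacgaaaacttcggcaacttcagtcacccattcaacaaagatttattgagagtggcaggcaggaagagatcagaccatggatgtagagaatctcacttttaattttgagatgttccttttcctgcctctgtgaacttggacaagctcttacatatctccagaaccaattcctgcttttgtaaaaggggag
The FGF1 sequence holds CACCTG once, and the FGF5 and FGFBP1 sequences hold neither of the 2 spellings. Both strands were also searched for TGANTCA, the AP-1 sequence, and GTCTAGAC, a SMAD sequence, neither of which was found in the 3 sequences printed. Across 19 windows of 8 members, some of which overlap, CAGGTG was found in 4 windows (2 overlapping ones of FGF1 and 1 each of FGFR2 and FGFR4) and TGANTCA in 1, before the fourth start of FGF1. The share of 35116 promoter windows of the same length with a match was 17.5% for CAGGTG, 6.57% for TGANTCA and 0.182% for GTCTAGAC. FGF9 had no entry, and the windows of FGFR1 are not reported here. A match is a description of the letters, and no binding was measured here.

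To ask which FGF genes changed with TGFβ, the log2 of each normalized count plus 1 was compared between groups with the moderated test of limma, fitted to the 14395 genes whose mean was 10 or more and adjusted by the Benjamini-Hochberg method at a threshold of 0.05. All fold changes below are on this scale. Of the 10 members, 9 passed the filter on low values and FGF2 did not; FGFR2 passed it only through the TGFβ libraries. After 3 days of TGFβ, 5 of the 9 tested members differed from SB, where 29.0% of all genes tested did. FGF1, FGF5 and FGFR2 rose (14.9% of all genes were higher), and FGF9 and FGFBP1 fell (14.0% were lower). With equal library totals the split of all genes turned from 2149 higher and 2021 lower to 1819 higher and 2552 lower, and the same number of members, 5, passed. After 7 days, 8 of 9 differed from SB, against 54.5% of all genes. FGF1, FGF5, FGF11, FGFR2 and FGFR3 rose, and FGF9, FGFR4 and FGFBP1 fell, with 27.7% of all genes higher and 26.9% lower. Only FGFR1 did not pass in either comparison. Between 7 and 3 days of TGFβ, 2 of 9 differed, FGF1 and FGF11, both higher at 7 days, against 33.2% of all genes. The median difference of the 9 members was 0.32 at 3 days, 1.11 at 7 days and 0.18 between the time points, beside −0.02, −0.0008 and 0.02 for all genes tested. Both comparisons with SB share the same SB libraries.

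**Figure D1:**
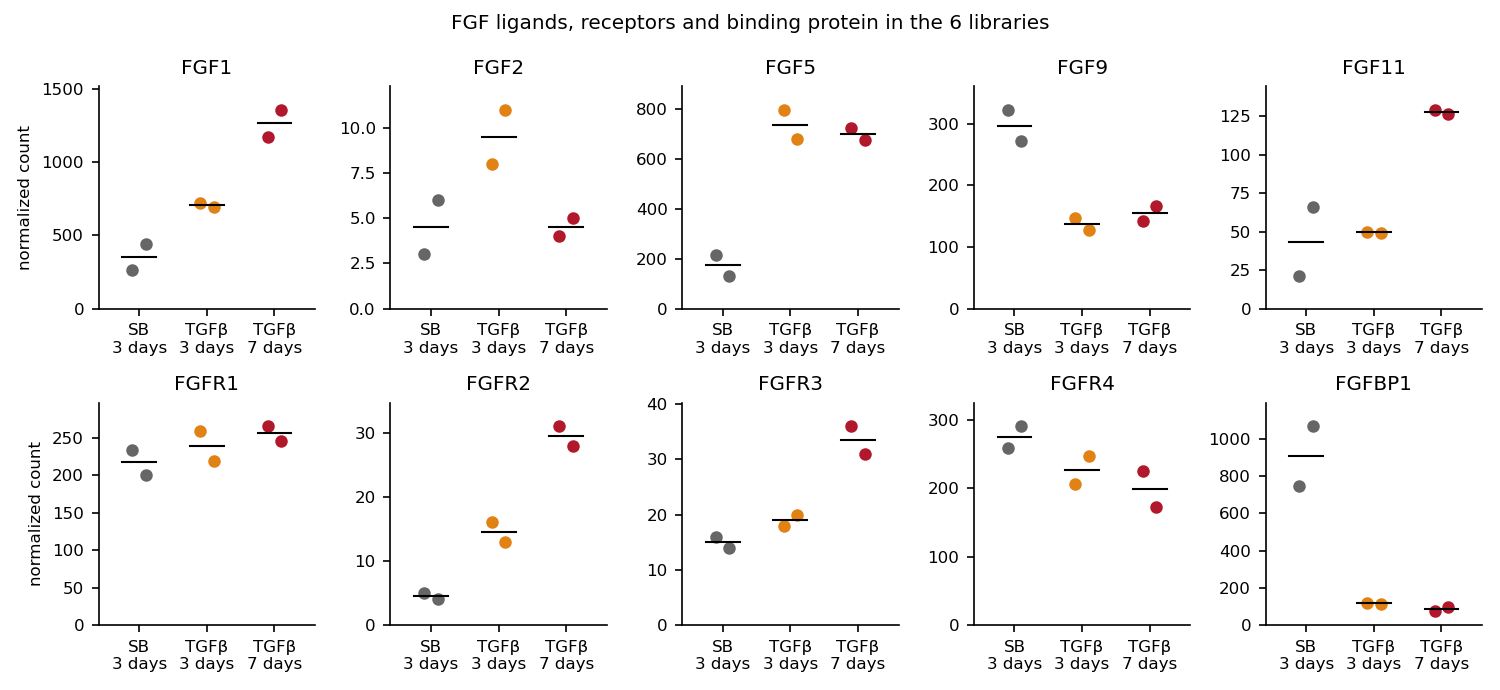
Normalized count of each of the 10 FGF members (vertical axes, each starting at 0 with its own scale) in the SB, TGFβ 3-day and TGFβ 7-day groups; points are the 6 libraries and lines the mean of 2. FGF1 steps up at both time points, FGF5 and FGFBP1 have most of their difference by 3 days, and FGFR1 lies between 200 and 265 throughout.

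FGF1, acidic FGF, can activate every FGF receptor and lacks a classical secretion signal. The gene lies on chr5:141971743-142077635 (GRCh37, minus strand). Its normalized counts were 264 and 442 with SB, 721 and 696 after 3 days of TGFβ and 1174 and 1360 after 7 days. The 3 groups did not overlap. FGF1 rose by 1.05 log2 units at 3 days (95% interval 0.63 to 1.47, adjusted p = 0.00162, limma) and by 1.88 at 7 days (1.46 to 2.31, adjusted p = 8.5e-06), when its mean was 3.59 times that with SB. Without SB library 1, the lower one, the 3-day difference was 0.68 and still passed the test. Between 7 and 3 days FGF1 rose by a further 0.83 (0.41 to 1.26, adjusted p = 0.00707), and leaving out 7-day library 2 moved it to the other side of the threshold (0.73, adjusted p = 0.0636). Its adjusted p over all alternatives in that comparison ran from 0.000207 to 0.0786.

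FGF5, a secreted ligand best known for ending the growth phase of hair, lies on chr4:81187793-81257834 (plus strand). It was at 213 and 132 normalized counts with SB, at 796 and 678 after 3 days of TGFβ and at 725 and 676 after 7 days. Every TGFβ library was above both SB libraries, and the TGFβ time points overlapped. FGF5 rose by 2.12 at 3 days (SE 0.19, adjusted p = 7.1e-06, limma) and by 2.06 at 7 days (adjusted p = 4.18e-06), 4.27 and 4.06 times the SB mean. The difference between 7 and 3 days was −0.07 (95% interval −0.49 to 0.35, adjusted p = 0.813). The annotation gives FGF5 136 exonic bases in common with CFAP299 on the same strand, so its counts are uncertain in that stretch.

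FGF9, a secreted ligand that in the developing lung comes from epithelium and mesothelium and favors IIIc receptor forms, lies on chr13:22245212-22278637 (plus strand). With SB its normalized counts were 323 and 272, against 147 and 127 after 3 days of TGFβ and 143 and 167 after 7 days. Both SB libraries were above all 4 TGFβ libraries. FGF9 fell by 1.11 at 3 days (SE 0.17, adjusted p = 0.000508, limma) and by 0.94 at 7 days (adjusted p = 0.000756). No difference passed the test between 7 and 3 days (0.18, 95% interval −0.20 to 0.56, adjusted p = 0.466).

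FGF11 belongs to the FGF homologous factors, which stay inside the cell and are not known to signal through FGF receptors as the secreted ligands do. It lies on chr17:7341592-7348256 (plus strand). The SB libraries gave 21 and 66 normalized counts, the 3-day libraries 50 and 49 and the 7-day libraries 129 and 126. Both 7-day libraries were above all others, and the 3-day libraries fell between the SB libraries. At 3 days the difference from SB was 0.40 (95% interval −0.47 to 1.27, adjusted p = 0.496, limma), and its sign depended on which SB library was kept: −0.41 without library 1 (adjusted p = 0.207) and 1.20 without library 2 (adjusted p = 0.0059). FGF11 rose at 7 days by 1.74 against SB (0.87 to 2.61, adjusted p = 0.00292), or by 0.94 without SB library 1, where it still passed. Against 3 days it rose by 1.35 (0.48 to 2.22, adjusted p = 0.0225); this call was lost when any of the 4 TGFβ libraries was left out (adjusted p from 0.0528 to 0.0891). Annotated lncRNAs share 1420 and 4169 exonic bases with FGF11 on the same strand and 69 on the opposite one, so its counts are uncertain in these stretches.

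FGF2, basic FGF, a ligand known for its part in angiogenesis, lies on chr4:123747837-123819391 (plus strand). Its normalized counts were 3 and 6 with SB, 8 and 11 after 3 days of TGFβ and 4 and 5 after 7 days. The 3-day libraries were the highest, but the mean of 6.17 over the 6 libraries was below the filter. In the fit of all genes without a filter, the difference from SB was 0.97 at 3 days (adjusted p = 0.167, limma) and 0.05 at 7 days (adjusted p = 0.962), so no change was detectable at this depth. FGF2 shares 804 exonic bases with its antisense gene NUDT6, which had 40 and 39 normalized counts with SB, 28 and 23 at 3 days and 19 and 30 at 7 days. The library kit does not mark the strand, so reads in those bases cannot be told apart.

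The remaining genes of the FGF family were near 0. Of 17 other family members listed, 13 were in the table and none had a mean of 10. FGF18 had the highest value, 9, and the other 12 stayed at or under 5 normalized counts in every library. FGF4, FGF10, FGF16 and FGF23 were not analysed here.

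Levels of different genes were compared per kb of the MANE Select transcript, the representative transcript of each gene, which treats all reads as coming from it. With SB the ligand order was FGF1 (94.2 ± 33.6 normalized counts per kb, SD, n = 2), FGF9 (65.7 ± 7.96), FGF5 (32.5 ± 10.8), FGF11 (16.9 ± 12.3) and FGF2 (0.676 ± 0.319). Per library, FGF1 and FGF9 made up 37.0% and 37.4% of the summed ligand level in SB library 1 and 51.4% and 26.2% in SB library 2, so their order there was not separated from the spread. The same held for FGF5 and FGF11, which took 21.1% and 4.28% in SB library 1 but 10.8% and 11.2% in SB library 2. With TGFβ the order was FGF1, FGF5, then FGF9 and FGF11. FGF1 was at 189 ± 4.72 per kb at 3 days and 338 ± 35.1 at 7 days, and FGF5 at 139 ± 15.7 and 132 ± 6.52. FGF9 was at 30.2 ± 3.12 at 3 days, above FGF11 at 19.2 ± 0.274. At 7 days FGF11 was at 49.5 ± 0.823 per kb and FGF9 at 34.2 ± 3.75, so this pair stood in the opposite order. The share of FGF1 in the summed ligand level was 48.7% and 51.3% at 3 days and 58.9% and 62.9% at 7 days. FGF9 made up 8.21% and 7.74% at 3 days and 5.93% and 6.39% at 7 days, below both of its SB shares. The summed level per kb of the 5 ligands was 190 and 229 with SB, 395 and 362 at 3 days and 532 and 577 at 7 days. This sum and the shares include FGF11, which stays inside the cell, so they do not measure the supply of receptor ligand. With all annotated exons as the length, FGF9 had a larger share than FGF11 at 7 days too (7.14% and 7.71% against 6.15% and 5.55%). The order of these 2 genes at 7 days thus depends on the transcript assumed. With that length FGF5 was above FGF11 in both SB libraries (22.4% against 2.58%, and 12.2% against 7.18%). The order of FGF5 and FGF11 in SB library 2 thus depends on it as well.

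**Figure D2:**
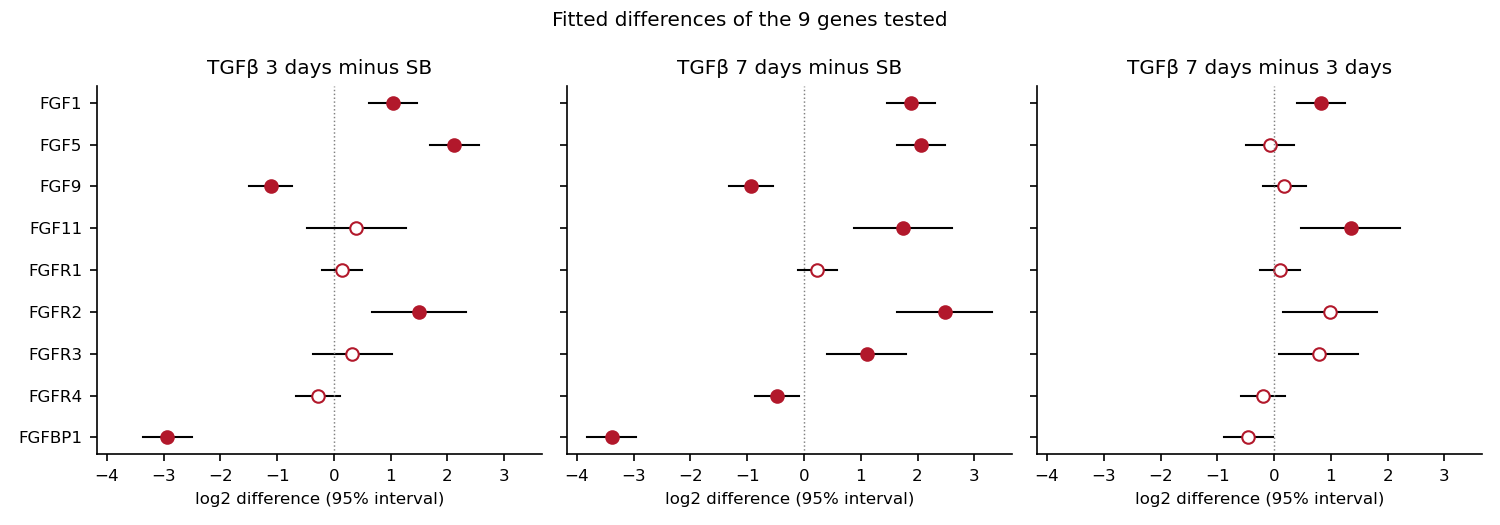
Fitted log2 differences of the 9 tested members for the 3 comparisons; points are limma estimates, bars their 95% intervals, and filled points are past an adjusted p of 0.05. FGFBP1 lies furthest to the left and FGFR2 and FGF5 furthest to the right against SB, and between 7 and 3 days only FGF1 and FGF11 are filled.

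FGFR1, the receptor most often tied to mesenchymal cells, lies on chr8:38257733-38326352 (minus strand). Its normalized counts were 234 and 200 with SB, 259 and 219 at 3 days and 265 and 246 at 7 days. The 7-day libraries were above the SB libraries by a small margin, and the other pairs of groups overlapped. FGFR1 passed no test: the difference from SB was 0.14 at 3 days (95% interval −0.21 to 0.49, adjusted p = 0.561, limma) and 0.24 at 7 days (−0.11 to 0.59, adjusted p = 0.228), and 7 minus 3 days was 0.10 (−0.25 to 0.45, adjusted p = 0.665). These intervals allow a change of up to 0.59 log2 units at 7 days. FGFR1 shares 138 exonic bases with LETM2 on the opposite strand, which had 458 and 273 normalized counts with SB, 770 and 777 at 3 days and 345 and 373 at 7 days. A further 387 exonic bases lie under an antisense lncRNA.

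FGFR2, whose IIIb form is the main epithelial FGF receptor, lies on chr10:123237846-123357972 (minus strand). It was at only 5 and 4 normalized counts with SB, at 16 and 13 after 3 days of TGFβ and at 31 and 28 after 7 days. The 3 groups did not overlap and followed the order of treatment time. FGFR2 rose by 1.49 at 3 days (SE 0.38, adjusted p = 0.0116, limma) and by 2.48 at 7 days (95% interval 1.65 to 3.31, adjusted p = 0.000187), which is 6.56 times the SB mean and the largest rise among the members. The 3-day call was lost without 3-day library 1 (1.35, adjusted p = 0.0952). From 3 to 7 days the difference was 0.98 (0.15 to 1.81, adjusted p = 0.0664), just outside the threshold, and it passed in 5 alternatives, among them the fit of only the 4 TGFβ libraries (adjusted p = 0.0241). With SB values this low, the pseudocount of 1 makes the fitted difference smaller than the ratio of the means.

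FGFR3, a receptor whose activating mutations cause short-limbed dwarfism and occur in bladder cancer, lies on chr4:1795020-1810599 (plus strand). The libraries had 16 and 14 normalized counts with SB, 18 and 20 at 3 days and 36 and 31 at 7 days. The groups did not overlap, although SB and 3 days were separated by only 2 normalized counts. At 3 days the difference from SB was 0.32 (SE 0.32, adjusted p = 0.485, limma), and at 7 days FGFR3 rose by 1.11 (95% interval 0.41 to 1.80, adjusted p = 0.0111), a call lost without 7-day library 1 (adjusted p = 0.0815). The 7 minus 3 days difference was 0.78 (0.09 to 1.48, adjusted p = 0.0774).

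FGFR4, the receptor for FGF19 in liver together with β-Klotho, lies on chr5:176513906-176525145 (plus strand). It had 259 and 291 normalized counts with SB, 207 and 247 at 3 days and 225 and 173 at 7 days. Both SB libraries were above all TGFβ libraries, and the TGFβ time points overlapped. At 3 days the difference was −0.28 (95% interval −0.66 to 0.11, adjusted p = 0.263, limma), and at 7 days FGFR4 fell by 0.47 (−0.86 to −0.09, adjusted p = 0.0378). This call was lost without SB library 1 (adjusted p = 0.0506), SB library 2 (0.142) or 7-day library 2 (−0.29, adjusted p = 0.312). The difference between 7 and 3 days was −0.20 (adjusted p = 0.419).

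Per kb of the MANE Select transcript, FGFR4 and FGFR1 were the main receptors in every library. With SB, FGFR4 was at 88.9 ± 7.32 normalized counts per kb (SD, n = 2) and FGFR1 at 38.1 ± 4.22, against 3.49 ± 0.329 for FGFR3 and 0.973 ± 0.153 for FGFR2. After 7 days of TGFβ the means were 64.3 ± 11.9 for FGFR4, 44.8 ± 2.36 for FGFR1, 7.79 ± 0.822 for FGFR3 and 6.38 ± 0.459 for FGFR2. The share of FGFR4 in the summed receptor level was 64.6% and 70.6% with SB, 55.8% and 63.5% at 3 days and 54.2% and 49.8% at 7 days. FGFR2 took 0.834% and 0.649%, then 2.88% and 2.24%, then 4.99% and 5.39%, and FGFR3 took 2.87% and 2.44%, then 3.49% and 3.70%, then 6.23% and 6.41%. The summed receptor level itself was 130 and 133 per kb with SB, 120 and 126 at 3 days and 134 and 112 at 7 days. The shares of FGFR2, FGFR3 and FGFR4 did not overlap between any of the groups. The FGFR1 share was 31.7% and 26.3% with SB, 37.9% and 30.6% at 3 days and 34.6% and 38.4% at 7 days, with the 3-day libraries overlapping both other groups. With the length of all annotated exons the FGFR4 share was higher in every library (61.9% to 80.4%), and the order FGFR4, FGFR1, FGFR3, FGFR2 was kept.

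**Figure D3:**
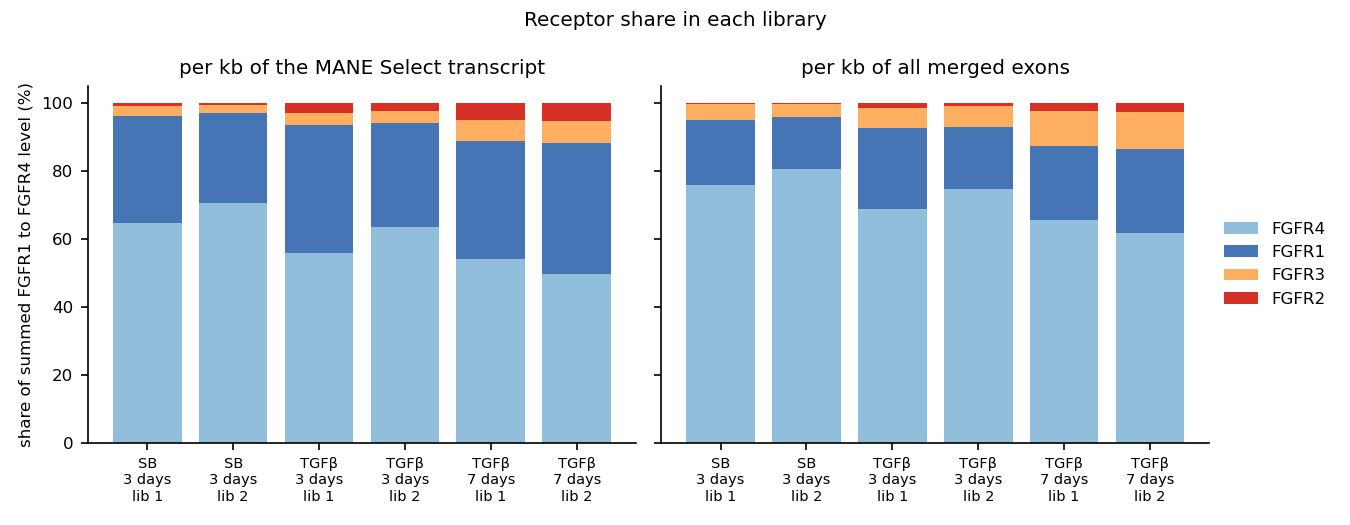
Share of each receptor in the summed level of FGFR1, FGFR2, FGFR3 and FGFR4 (%, vertical axis) in each of the 6 libraries, with levels per kb of the MANE Select transcript (left) or of all annotated exons (right). FGFR4 is the largest part of every bar, from 49.8% to 70.6% on the left, and the FGFR2 and FGFR3 parts at the top are widest at 7 days.

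FGFBP1, a secreted carrier that frees FGFs from heparan sulfate in the matrix, had the largest difference of all members. The gene lies on chr4:15937200-15940363 (minus strand). It was at 745 and 1068 normalized counts with SB, at 119 and 113 after 3 days of TGFβ and at 75 and 95 after 7 days. The 3 groups did not overlap, and the lowest SB library was several times the highest TGFβ library. FGFBP1 fell by 2.93 at 3 days (SE 0.20, adjusted p = 5.88e-07, limma) and by 3.39 at 7 days (95% interval −3.82 to −2.95, adjusted p = 6.77e-08), so that the SB mean was 7.81 and 10.7 times the TGFβ means. From 3 to 7 days the difference was −0.45 (−0.88 to −0.02, adjusted p = 0.0976). Per kb, its SB level of 671 ± 169 was above that of every ligand and receptor here, while at 7 days its 62.9 ± 10.5 was below FGF1 and FGF5.

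The SB libraries differed in the members too. SB library 1, which had less SFTPB, was nearer to the TGFβ libraries than SB library 2 for FGF5, FGFR4 and FGFBP1. It was further from them for FGF1 and FGF9. For FGF11 the SB libraries, at 21 and 66 normalized counts, stood on either side of the 3-day ones. Leaving out either SB library kept FGF1, FGF5, FGF9 and FGFBP1 past the test at both time points, with 3-day differences of 0.68 to 1.42 for FGF1 and −3.19 to −2.67 for FGFBP1. The part of this difference between libraries in the results was not tested.

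Co-receptors and the other binding proteins formed a list of 5 genes, of which 3 passed the filter on low values. FGFRL1, a receptor-like protein that binds FGFs and lacks the kinase domain, had 928 and 749 normalized counts with SB, 926 and 1063 at 3 days and 1233 and 1078 at 7 days. It rose by 0.47 at 7 days (adjusted p = 0.0101, limma), with 0.25 at 3 days (adjusted p = 0.178). FGFBP3, a relative of FGFBP1, had 82 and 53 with SB, 34 and 27 at 3 days and 26 and 36 at 7 days, and it fell by 1.10 (adjusted p = 0.0187) and 1.08 (adjusted p = 0.0102). At 7 days FGFRL1 did not pass without SB library 2, FGFBP3 did not pass without SB library 1, and neither passed without 7-day library 1, and at 3 days FGFBP3 did not pass without SB library 1 or without 3-day library 2. KLB, the β-Klotho co-receptor, stood between 9 and 16 in all libraries and passed no test (−0.45 at 7 days, adjusted p = 0.366). KL, the Klotho co-receptor for FGF23, was at 0 in every library.

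A list of 4 splicing factors known to act on the choice between the FGFR2 forms held 3 tested genes, of which 1 fell at 3 days and 2 fell at 7 days, with medians of −0.17 and −0.63, where 14.0% and 26.9% of all genes tested were lower. ESRP2, an epithelial splicing factor that favors the IIIb form, had 797 and 832 normalized counts with SB, 386 and 447 at 3 days and 149 and 121 at 7 days. It fell by 0.97 at 3 days (adjusted p = 0.000437, limma), by 2.59 at 7 days (adjusted p = 6.15e-08) and by 1.62 between the time points (adjusted p = 2.69e-05), while FGFR2 rose or had a positive difference in the same comparisons. Its partner ESRP1 was at 8 and 6 with SB and at 2 to 4 in the TGFβ libraries, below the filter. PTBP1, a splicing repressor, fell by 0.63 at 7 days (adjusted p = 0.000105), and RBFOX2 did not pass (0.09, adjusted p = 0.391). Which FGFR2 form was made was not measured here.

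Genes of heparan sulfate synthesis and modification, which shape FGF binding, included 11 tested of 12 listed. At 7 days, 7 rose and 2 fell against SB, with a median of 0.44, and at 3 days 1 rose and 1 fell, with a median of −0.03, beside 54.5% and 29.0% of all genes past the test. The count of 9 at 7 days was 6 without either 7-day library and 7 without SB library 1. HS3ST3A1, a 3-O-sulfotransferase, went from 12 and 17 normalized counts with SB to 74 and 66 at 3 days and 158 and 162 at 7 days, a rise of 3.40 at 7 days (adjusted p = 4.83e-07, limma). HS3ST1, of the same enzyme family, rose by 1.52 (adjusted p = 0.000474), and SULF1, which removes 6-O-sulfates outside the cell, rose by 1.21 (adjusted p = 0.0388) from 8 and 12 to 29 and 20. HS6ST2, which adds 6-O-sulfates, fell by 1.26 (adjusted p = 2.89e-06), and the chain polymerase EXT1 fell by 0.34 (adjusted p = 0.00424).

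The relay from receptor to MAP kinase was described by 19 genes. At 3 days 5 rose and 14 did not pass, and at 7 days 10 rose, 1 fell and 8 did not pass, with medians of 0.06 and 0.33. In total these counts are near the shares over all genes tested, 29.0% at 3 days and 54.5% at 7 days. By direction the relay calls were nearly all rises, while 14.9% of all genes were higher and 14.0% lower at 3 days. At 7 days 27.7% of all genes were higher and 26.9% lower. The largest rises at 7 days were in the docking protein GAB1 (0.98, adjusted p = 0.000126), the RAS exchange factor SOS2 (0.80, adjusted p = 4.5e-05) and the adaptor SHC1 (0.70, adjusted p = 1.98e-05), and HRAS fell by 0.51 (adjusted p = 0.0254, limma). The 3-day count depended on 3-day library 1, without which it was 2, and it was 3 with no filter or with no trend in the variance model. Between the time points 6 of 19 passed, all higher at 7 days, where 33.2% of all genes tested passed and 17.0% were higher. This count depended on 7-day library 2.

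Targets and feedback inhibitors of FGF and ERK signaling, also 19 genes, moved in both directions: 7 rose and 5 fell at 3 days, and 9 rose and 6 fell at 7 days, with medians of −0.08 and −0.05. Over all genes tested, 29.0% passed at 3 days and 54.5% at 7 days. Among the Sprouty inhibitors, SPRY1 had 1467 and 1306 normalized counts with SB, 374 and 347 at 3 days and 312 and 311 at 7 days, a fall of 2.15 at 7 days (adjusted p = 5.47e-08, limma). SPRY2 fell by 1.35 (adjusted p = 1.11e-06) and SPRY4 rose by 0.73 (adjusted p = 4.68e-05), so members of 1 inhibitor family differed in direction. The MAP kinase phosphatases were split as well: DUSP4 rose by 1.85 (adjusted p = 1.8e-07) and DUSP5 fell by 1.45 (adjusted p = 6.45e-08) at 7 days. DUSP6, the phosphatase specific for ERK, fell by 0.90 at 3 days (adjusted p = 3.96e-06) and rose again by 0.71 from 3 to 7 days (adjusted p = 7.56e-05), ending at −0.19 from SB (adjusted p = 0.0536). FLRT3, a membrane protein that binds FGF receptors, went from 83 and 37 with SB to 489 and 500 at 3 days and 589 and 591 at 7 days, a rise of 3.39 (adjusted p = 1.2e-06). IL17RD, a membrane inhibitor of FGF signaling also called SEF, rose by 0.34 at 3 days (adjusted p = 0.0228) and by 2.34 at 7 days (adjusted p = 5.43e-09), from 761 and 755 with SB to 961 and 963 and then 3613 and 4093. The AP-1 subunit FOSL1 fell by 1.59 at 7 days (adjusted p = 9.21e-06). Of the ETS factors, ETV5 rose by 0.53 at 7 days (adjusted p = 0.000115), ETV4 did not pass (−0.12, adjusted p = 0.417), and ETV1, named here after its values were seen to complete the 3 ETS genes of the list, fell by 0.86 at 3 days (adjusted p = 1.79e-05) and by 0.56 at 7 days (adjusted p = 0.000222).

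**Figure D4:**
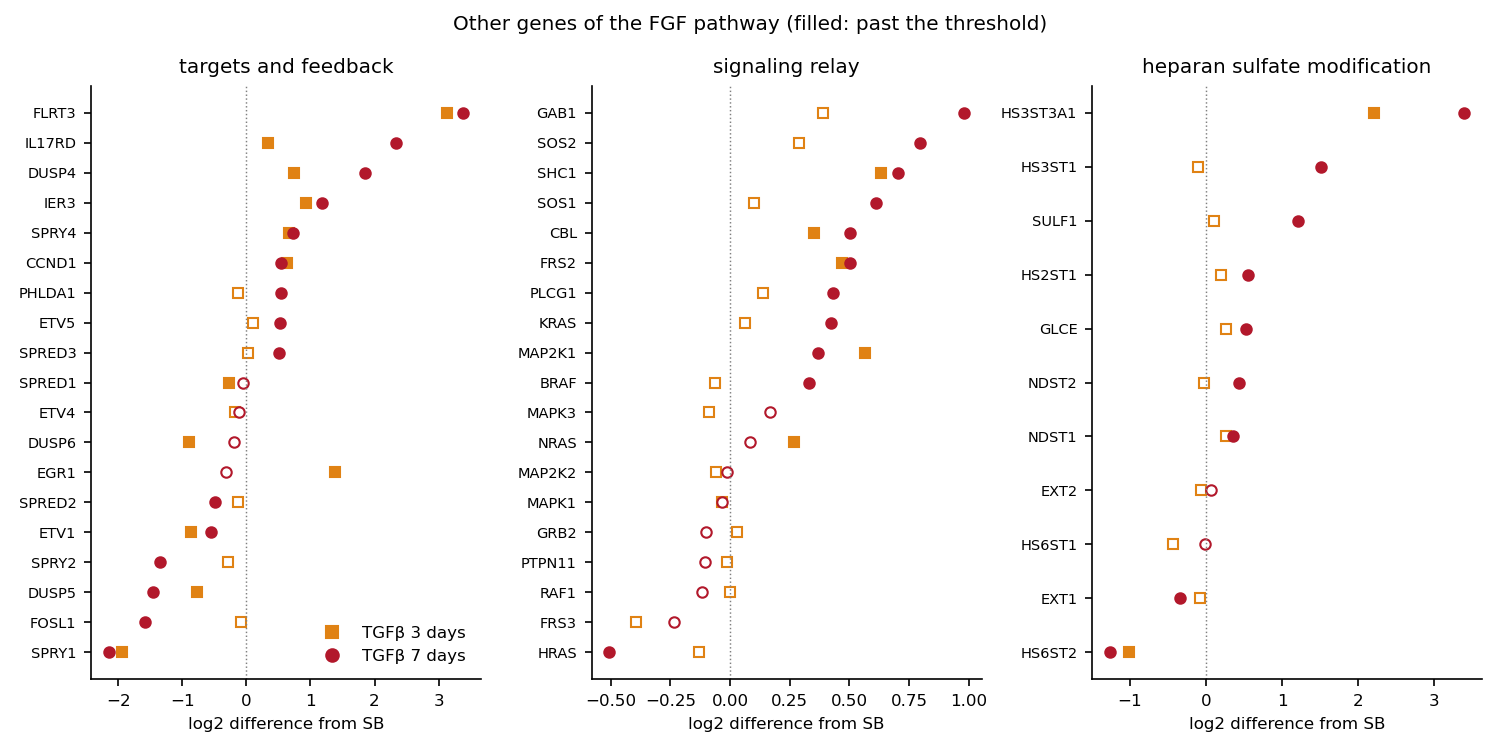
Log2 differences from SB after 3 days (squares) and 7 days (circles) of TGFβ for the targets and feedback, signaling relay and heparan sulfate genes; filled symbols are past an adjusted p of 0.05, and the 3 horizontal axes have different ranges. FLRT3 and HS3ST3A1 lie furthest to the right at 7 days (3.39 and 3.40) and SPRY1 furthest to the left (−2.15).

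The profiles most like those of the members with the largest rise and the largest fall were sought in the 11389 genes whose mean was 100 or more, as the root mean square difference of centered log2 values over the 6 libraries. Closest to FGFR2 were the sodium channel gene SCN2A (0.114), ANKH (0.117) and MN1 (0.123). As FGFR2 had only 5 and 4 normalized counts with SB, the pseudocount of 1 flattens its profile more than theirs. SCN2A was at 49 and 38 normalized counts with SB, 119 and 122 at 3 days and 231 and 211 at 7 days. Closest to FGFBP1 were SLC27A2 (0.180), ISM1 (0.183) and TMC5 (0.197), with SLC27A2 at 475 and 565, then 87 and 87, then 53 and 59. ISM1 was at 1371 and 1862, then 176 and 182, then 168 and 168. All of these profiles come from the same 6 libraries, and the measure gives no test.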

How the data were processed

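RNA was extracted from H2087-LCC cells, and polyA libraries made with a kit that does not mark the strand were sequenced in read pairs. The authors mapped the reads to hg19 with STAR, assigned them to genes with HTSeq 0.6.1p1 and scaled the counts to library size. The deposited values, recorded under the unit score, are these normalized counts rounded to whole numbers; reads cannot be recovered from them, so the negative binomial test named by the authors was not used. The annotation release they counted on is not given in the sources used here. All 6 columns were used.

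The log2 of the value plus a pseudocount of 1 was fitted with limma 3.58.1 in R 4.3.3 (group as the only term, trend on mean expression, 3 residual degrees of freedom) for the 14395 genes whose mean was 10 or more. P-values were two-sided and adjusted by the Benjamini-Hochberg method over all genes tested, at 0.05. An exact permutation test of 2 against 2 libraries cannot go below 0.333 and was not used. The steps were tested on simulated data. Members, gene lists and tests were chosen with earlier results of these data known. Besides the members, genes were named by rule: 10 pathway genes by name (FGFRL1, KLB, ESRP1, ESRP2, SPRY1, SPRY2, SPRY4, DUSP6, ETV4 and ETV5), up to 3 rises and 3 falls per list at 7 days against SB, and the 3 profiles closest to 2 members. Overlaps and lengths came from the GENCODE annotation on GRCh37. Alternatives were pseudocounts of 0.5 and 5, no filter, a mean of at least 50, 3 scalings, no trend, only the 4 libraries compared, a replicate block, and each library left out. Python 3.11.15 and matplotlib 3.10.9 drew the figures.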

Additional observations from a re-analysis of the deposited data

Results flagged for a closer look

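The effect of TGFβ against SB differed between 3 and 7 days for 2 of the 9 tested members, where 33.2% of all genes tested differed. This was tested by the contrast of 7 with 3 days in the same limma fit. FGF1 was higher at 7 days by 0.83 on the log2 scale (adjusted p = 0.00707), and both 7-day libraries were above both 3-day libraries. FGF11 was higher at 7 days by 1.35 (adjusted p = 0.0225), again in both libraries. Neither call held with no filter or with no trend in the variance model, and both also depended on single libraries. The contrast uses no SB library for its value and cannot tell time with TGFβ from time in culture.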

How the results depend on the processing

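Of 426 recomputed differences (27 member results under up to 16 alternatives), 398 kept their direction and their side of the threshold, 16 no longer passed, 9 came to pass and 3 changed sign. The sign changes were FGF11 at 3 days against SB without SB library 1 (−0.41 to 1.20 over the libraries left out), and, between 7 and 3 days, FGF5 without 3-day library 1 (−0.19 to 0.046) and FGFR1 without 3-day library 2 (−0.021 to 0.22), none of which had passed with all libraries. With all libraries kept, the number of members past the test was 4 to 5 at 3 days and 6 to 8 at 7 days over the alternatives. All genes past it numbered 2846 to 4371 at 3 days and 7084 to 8763 at 7 days. The lows of 4 and 6 members came with a mean of at least 50, where only 7 members were tested. Between 7 and 3 days the number of members was 2, and it was 3 with a pseudocount of 5 and 4 with only the 4 libraries compared. It was 0 with no filter (limma, 4 at an unadjusted p under 0.05). With no trend it was also 2, but these were FGFR2 and FGFR3 in place of FGF1 and FGF11. All of these numbers of members also moved with a library left out. All genes called between 7 and 3 days numbered 4775, with 3042 under no filter, 3122 with no trend and 2314 to 5554 with a library left out; at 3 days against SB they numbered 4170, and 2609 to 3877 with a library left out, the lowest without 3-day library 1. FGF1 and FGF11 between 7 and 3 days were lost with no filter (adjusted p = 0.0786 and 0.141) and with no trend (0.0644 and 0.102), and FGFR4 at 7 days against SB likewise (0.0931 and 0.0636). The cause of these changes was not tested. With equal library totals, 41.6% of all genes called at 3 days were higher, against 51.5%, and no scaling changed the call of a member.

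Replicate numbers were shared by the groups, but the same number did not mark a pair throughout. The deviations of same-numbered libraries correlated at 0.21 between SB and 3 days, −0.13 between SB and 7 days and −0.65 between 3 and 7 days. At 3 and 7 days it was thus the libraries with unlike numbers that deviated alike, which the main fit does not model. With the replicate number as a block, 5, 8 and 2 members and 3943, 7546 and 4485 genes passed at 3 days, at 7 days and between them. With the numbers crossed at 7 days, an alternative added after the data were examined, 8 and 2 members and 8763 and 5972 genes passed at 7 days and between the time points. FGF2 and FGFR2 with SB rest on few reads, and a small difference in them is not detectable at this depth.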
